A study of Mus musculus with 20 samples.

Results

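The genes considered here are those of retinoic acid synthesis, breakdown and reception: Rdh10, Dhrs3, Aldh1a1, Aldh1a2, Aldh1a3, Cyp26b1, Crabp2, Rarg and Rxra. These 9 genes were chosen by their role and taken by symbol from the 24552 genes of the expression table. All 9 were in the table and 8 passed the filter on low values (a mean normalized count of at least 10 over all libraries). Aldh1a2 did not, and is described from its reads. The data were 3′-end RNA sequencing of corneal epithelium scraped from untreated wild-type female C57BL/6J mice at 4 ages, with 5 libraries per age. Each library came from both corneas of 1 animal. The ages were 2 to 3 months (the young group), 12 to 13 months, 18 to 19 months and 24 to 25 months, called 2, 12, 18 and 24 months below. Animals were bought, aged in house or received from the National Institute of Aging, and which library came from which source is not given in the sources used here, so age and source cannot be told apart. Between 6699383 and 10762360 reads per library lay on genes.

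Retinol, or vitamin A, is oxidised to retinal and retinal to retinoic acid, which binds nuclear receptors and sets the transcription of many genes. Cells that make retinoic acid can also destroy it, so that its level depends on both arms. The corneal epithelium relies on vitamin A to stay a moist, non-keratinised surface, and it turns to a skin-like, keratinised state when the vitamin is lacking. The question here was whether the genes of this pathway differed between the young group and each aged group.

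Aldh1a1, an aldehyde dehydrogenase that turns retinal into retinoic acid, was higher at 18 and 24 months than in the young group, by 1.6-fold and 1.59-fold. It was the 1 gene of the 8 tested that passed the test at either age. Cyp26b1, the enzyme that breaks retinoic acid down, had a mean 1.94-fold higher at 24 months on the log scale but did not pass. The other aldehyde dehydrogenase with substantial reads, Aldh1a3, had lower means in every aged group and did not pass. The retinol side of the pathway (Rdh10, Dhrs3), the carrier Crabp2 and the receptors Rarg and Rxra did not pass in any comparison.

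A gene was called a DEG at a Benjamini-Hochberg adjusted p of 0.05 or less over 11288 genes and a change of at least 1.2-fold in limma. Of the 8 genes, 0 were DEGs at 12 months (2 had an unadjusted p under 0.05, and 0 were called by voom), against 0.532% of all genes tested. At 18 months 1 was a DEG, against 0.673%, and at 24 months 1 was a DEG, against 0.78%. With the 15 aged libraries as 1 group 1 was a DEG, against 1.01%. In each case that gene was Aldh1a1. For 12, 18 and 24 months in turn, the 8 genes had a median log2 fold change of 0.009, 0.013 and 0.11, and all genes tested had one of -0.010, -0.0011 and 0.0052. At 24 months 6 of the 8 had a higher mean on the log scale and 2 a lower one. All comparisons with the young group used the same 5 young libraries.

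**Figure D1:**
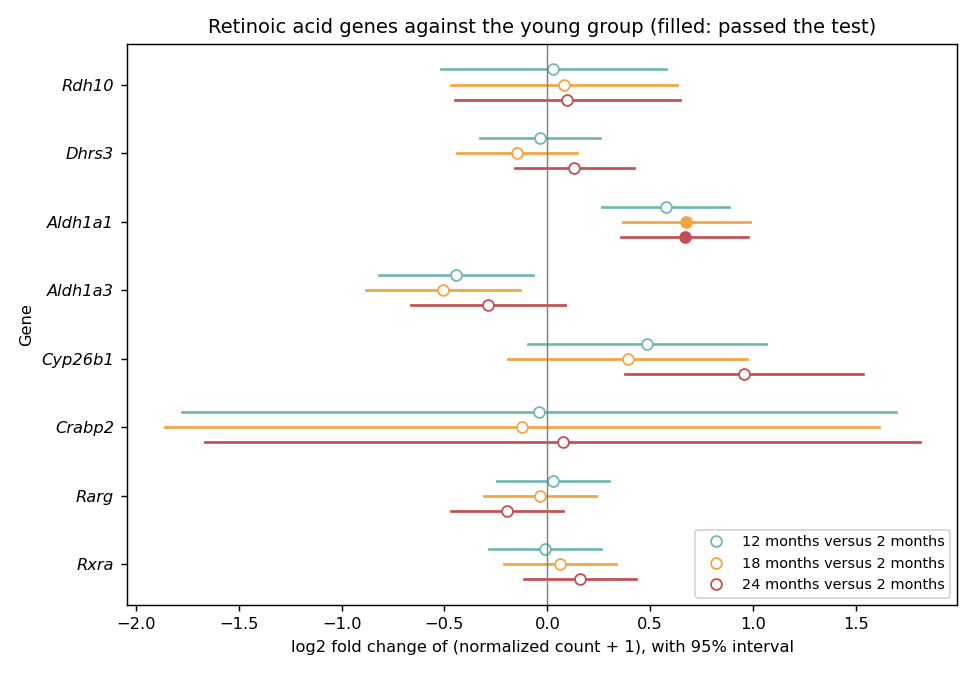
The log2 fold change of (normalized count + 1) against the young group is plotted on the x axis for the 8 genes tested, with its 95% interval from limma, for 12, 18 and 24 months. The points for Aldh1a1 at 18 months (0.68) and 24 months (0.67) are filled because they passed the test; every other point is open, and the intervals of Crabp2 are the widest.

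The promoter windows of Aldh1a1 are shown because it is the gene that passed. RefSeq (GRCm38.p6) places Aldh1a1 at chr19:20492583-20643463 on the plus strand and lists a pair of start sites, one at the upstream end and one inside that span. Each window runs from 250 bases before a start to 50 after it, 5′ to 3′ on the plus strand, at chr19:20492333-20492632 for the upstream start and chr19:20601718-20602017 for the inner start. Capitals mark a half-site of the kind bound by retinoic acid receptors, searched as AGGTCA, the variant AGTTCA, the variant GGGTCA and the variant GGTTCA, on both strands.
Aldh1a1 upstream start: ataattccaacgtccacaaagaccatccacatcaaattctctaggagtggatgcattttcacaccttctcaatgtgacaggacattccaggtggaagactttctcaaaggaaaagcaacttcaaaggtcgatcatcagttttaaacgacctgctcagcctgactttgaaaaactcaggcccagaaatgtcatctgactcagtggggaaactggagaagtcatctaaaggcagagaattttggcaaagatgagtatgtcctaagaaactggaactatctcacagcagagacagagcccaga
Aldh1a1 inner start: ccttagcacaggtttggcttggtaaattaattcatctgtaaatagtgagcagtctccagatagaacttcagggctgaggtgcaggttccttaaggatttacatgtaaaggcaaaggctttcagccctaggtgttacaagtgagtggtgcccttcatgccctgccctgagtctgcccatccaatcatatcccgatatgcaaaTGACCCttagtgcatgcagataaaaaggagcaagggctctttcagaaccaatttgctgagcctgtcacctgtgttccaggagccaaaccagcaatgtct
The upstream window held 0 half-sites. The inner window held 1, written TGACCC on the plus strand and beginning 49 bases before the start. Of the 32851 promoter windows in the RefSeq table, 43.7% held at least 1 such half-site, so the match does not set Aldh1a1 apart. Among the 6 of 9 genes with a window, Aldh1a2, Cyp26b1 and Dhrs3 had 0 matches, Rarg had 1 and Rxra had 3. No window of these genes held a pair of half-sites in direct repeat with a spacer of 1, 2 or 5 bases. Reads from the 3′ end do not tell which start was used.

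The pathway begins with Rdh10, which oxidises retinol to retinal (chr1:16105882-16132550). Its level lay between 72.2 and 201 normalized counts over the 20 libraries, a normalized count being the reads of a gene divided by the size factor of its library. From the youngest to the oldest group the means were 111 ± 16.4 (SD, n = 5), 120 ± 51.9, 118 ± 23.0 and 123 ± 45.7. The highest library at 12 months and the highest at 24 months, both near 201, stood above the rest of their age. The groups overlapped throughout. The difference at 24 months was 0.10 on the log2 scale with a 95% interval of -0.45 to 0.65, so changes of up to 1.56-fold upwards or 0.732-fold downwards were within reach of these libraries.

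Dhrs3 reduces retinal back to retinol and thereby draws on the same pool (chr4:144892534-144928209). Its normalized counts in the young libraries were 489, 485, 382, 320 and 509. At 18 months they were 414, 398, 406, 349 and 378, and at 24 months 466, 464, 455, 472 and 500. The 24-month libraries lay close together, with an SD of 17.0 against 81.9 in the young group, and inside the range of the young ones. All 5 lay above all 5 of the 18-month libraries, a separation found for 1.2% of all genes tested in that comparison. The difference between 24 and 18 months was 0.28 on the log2 scale (SE 0.14, limma, adjusted p = 0.919) and Dhrs3 was not a DEG. Against the young group its differences were -0.04, -0.15 and 0.13 at 12, 18 and 24 months, with 95% intervals that all included 0.

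**Figure D2:**
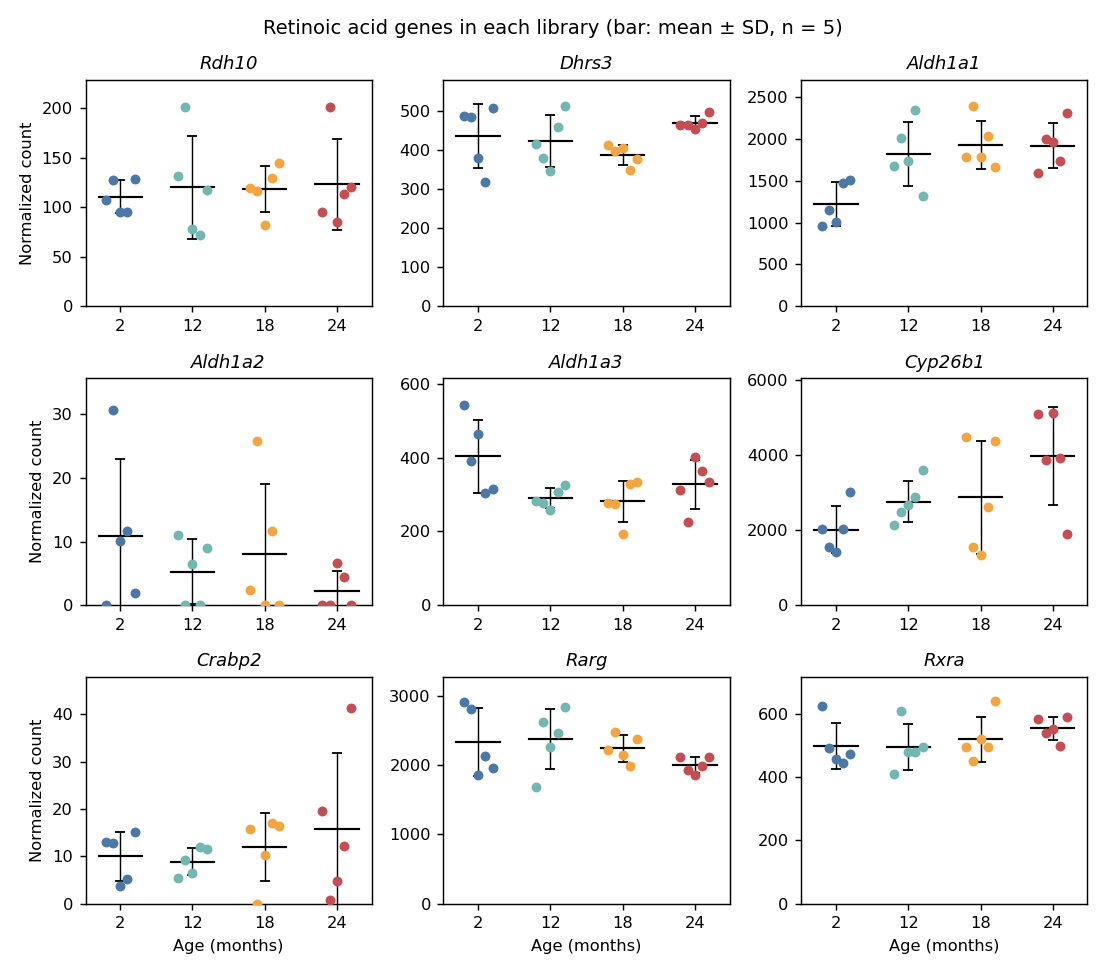
Each panel plots 1 gene, with age in months on the x axis and the normalized count of each library on a linear y axis from 0. Points are single libraries with replicates 1 to 5 from left to right, lines are means and bars are 1 SD (n = 5), with the lower end left out where it would fall under 0; every 18- and 24-month point of Aldh1a1 lies above the highest young point, at 1513.

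Aldh1a1 encodes a cytosolic aldehyde dehydrogenase that is also an abundant soluble protein of the cornea in some mammals. In the young group its normalized counts were 953, 1150, 1005, 1477 and 1513. At 12 months they were 1676, 2006, 1738, 2347 and 1320. At 18 months they were 1779, 2387, 1788, 2029 and 1668, and at 24 months 1594, 1999, 1964, 1734 and 2302. All libraries of 18 and 24 months were above all young ones, and at 12 months replicate 5 was inside the young range. In all, 14 of 15 aged libraries exceeded the highest young library. The young group itself was uneven, with replicates 4 and 5 well above replicates 1 to 3.

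Mean Aldh1a1 rose from 1220 ± 262 (SD, n = 5) in the young group to 1930 ± 287 at 18 months and 1919 ± 271 at 24 months, and was 1817 ± 384 at 12 months. The log2 fold change was 0.68 at 18 months (SE 0.15, limma, adjusted p = 0.0209) and 0.67 at 24 months (adjusted p = 0.0232). The 95% interval of the fold ran from 1.29 to 1.98 at 18 months and from 1.28 to 1.97 at 24 months. At 12 months the log2 fold change was 0.58 (adjusted p = 0.0851), which missed the threshold. With all aged libraries together it was 0.64 (SE 0.12, adjusted p = 0.00316). A complete separation of the libraries was found for 2.05% of all genes tested at 18 months and for 2.81% at 24 months, and Aldh1a1 was the 1 gene of the 8 that showed it at either age. At 12 months 0 of the 8 showed it, against 1.98% of all genes.

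The order of the means was 2, 12, 24 and 18 months, and the aged groups did not differ beyond their spread. Taken from 12 months, Aldh1a1 differed by 0.10 at 18 months and by 0.09 at 24 months on the log2 scale, and the value for 24 against 18 months was -0.01, with 95% intervals that reached at most 0.41 in either direction. No gene of the 8 was a DEG between aged groups in limma (0 had an unadjusted p under 0.05 in each of the 3 comparisons, and 0 were called by voom), against 0.00886% of all genes for 18 versus 12 months, 0.195% for 24 versus 12 months and 0.0% for 24 versus 18 months. When single libraries were dropped in turn, Aldh1a1 lost its call in 5 of 20 fits for 18 months (limma, adjusted p of up to 0.0927). For 24 months it lost the call in 6 of 20 (up to 0.0789). In these fits its log2 fold change stayed between 0.59 and 0.76 at 18 months and between 0.59 and 0.75 at 24 months. The libraries in question were young replicates 1, 2 and 3 at both ages, replicates 2 and 4 at 18 months, and replicates 2, 3 and 5 at 24 months. All of them belonged to the compared ages, which have 5 libraries each. Leaving out a library of another age cannot change the log2 fold change of a comparison, so those fits say little about its stability. At 12 months Aldh1a1 became a DEG without replicate 5 of that age (adjusted p = 0.0265). With all aged libraries together the call held in all 20 fits.

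Markers of stromal keratocytes and secretory glands were lower in the aged libraries than in the young ones and are given for that reason. Not every list of markers went that way. At 12, 18 and 24 months the median log2 fold change was -0.48, -0.28 and -0.99 for the 6 immune markers tested. For the 2 melanocyte markers tested it was 1.06, 0.53 and 0.07. The vessel and nerve lists had 1 gene tested each. The summed level of 11 stromal keratocyte markers was 1830 to 4940 in the young libraries and 735 to 1770, 719 to 1540 and 376 to 1190 at 12, 18 and 24 months. The summed level of 7 secretory gland markers was 748 to 10700 in the young libraries and at most 259 in any aged one, and Lcn11 was at 0 in every library of every aged group. Of the keratocyte markers tested, 4 of 10 at 18 months and 6 of 10 at 24 months fell, and of the gland markers 6 of 7 fell at each of these ages. Voom called 4 and 5 of the keratocyte markers at 18 and 24 months, and 1 of the gland markers at each. The summed level of the corneal epithelial markers was 424000 to 534000 in the young libraries and 430000 to 497000 in the aged ones, and 0 of 10 were DEGs at any age (limma; 2, 1 and 2 had an unadjusted p under 0.05 at 12, 18 and 24 months, and voom called 0). The young libraries with the highest Aldh1a1, replicates 4 and 5, had the highest gland sums, at 10700 and 7150. In a bulk library fewer cells of a type and less RNA per cell cannot be told apart.

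With young replicates 4 and 5 left out, Aldh1a1 was a DEG at all 3 ages (log2 fold change 0.79, 0.89 and 0.88, limma, adjusted p = 0.0252, 0.00822 and 0.00632). With young replicates 2 and 3, which had the highest keratocyte sums, left out instead, it was a DEG at none (0.47, 0.57 and 0.57, adjusted p = 0.452, 0.209 and 0.139), and with all aged libraries together it also missed the threshold (adjusted p = 0.115). Both of these fits were chosen after the data were seen and kept 3 young libraries. Young replicates 4 and 5 had the highest Aldh1a1 of that group (1477 and 1513), while replicates 2 and 3 (1150 and 1005) lay under its mean of 1220. The direction in which each fit moved the fold change was thus set by the Aldh1a1 values themselves, so these fits cannot separate the marker levels from it. The part of the other tissue in the difference of Aldh1a1 was not tested.

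**Figure D3:**
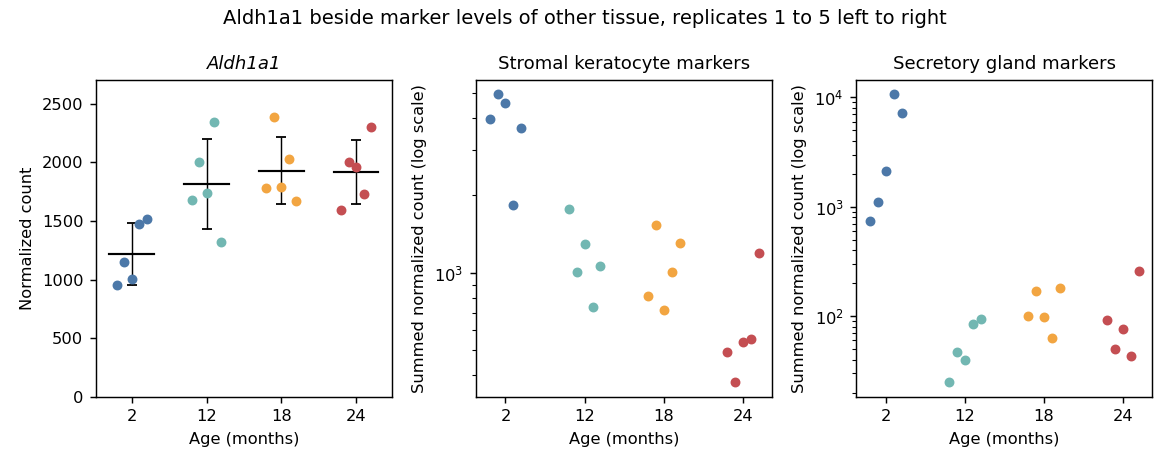
The left panel plots the normalized count of Aldh1a1 in each library by age, with mean and SD (n = 5), on a linear axis from 0; the other panels plot the summed normalized count of 11 stromal keratocyte and 7 secretory gland markers on log axes. Points are libraries, and every aged library is below every young one for both marker sums, with gland sums of at least 748 in the young group and at most 259 in the aged groups.

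Aldh1a1 has a close copy next to it on chromosome 19, Aldh1a7, at chr19:20692953-20727556. The proteins that the longest reading frames of their GENCODE transcripts encode shared 454 of 501 residues (90.6%). The transcripts were less alike where 3′-end reads fall. Of the 526 windows of 75 bases in the last 600 bases of the Aldh1a1 transcript, 0 occurred in an Aldh1a7 transcript and 0 came within 2 mismatches, the closest having 4. Aldh1a7 had mean levels of 76.0 ± 23.0 (SD, n = 5), 54.7 ± 13.6, 45.5 ± 13.3 and 61.7 ± 35.4 at 2, 12, 18 and 24 months. Its log2 fold changes were -0.45, -0.72 and -0.42 at 12, 18 and 24 months, and it was not a DEG (limma, adjusted p = 0.747, 0.676 and 0.734). None of the 9 genes shared exonic bases with another gene in the GENCODE annotation.

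Aldh1a2, the retinal dehydrogenase that makes most of the retinoic acid of the embryo (chr9:71215789-71296243), was too low to test. The young libraries held 0, 41, 11, 11 and 2 reads of it. The 12-month libraries held 12, 0, 6, 0 and 7 reads, the 18-month libraries 2, 22, 0, 13 and 0, and the 24-month libraries 0, 0, 7, 5 and 0. Libraries without a read and libraries with several occurred at each age, and a count of 0 allows up to 3 reads by counting error alone. An exact two-sided permutation test of the log2 values gave p = 0.476, 0.619 and 0.206 for 12, 18 and 24 months against the young group, where 0.00794 is the smallest p that 5 against 5 allows. A difference in Aldh1a2 was not detectable in these libraries.

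Aldh1a3, the third retinal dehydrogenase (chr7:66390892-66427477, minus strand), had its highest values in young libraries. The young libraries gave 543, 392, 464, 305 and 317 normalized counts. At 12 months the values were 282, 278, 258, 309 and 326, at 18 months 278, 276, 195, 330 and 334, and at 24 months 313, 227, 402, 366 and 334. Young replicates 1 and 3 stood above every aged library, while young replicates 4 and 5 lay inside the aged range. Young replicates 4 and 5, the highest young libraries for Aldh1a1, were thus the lowest for Aldh1a3. The log2 fold changes were -0.44, -0.51 and -0.29 (SE 0.18) at 12, 18 and 24 months. None passed after adjustment (limma, adjusted p = 0.407, 0.397 and 0.635), although the unadjusted p was 0.022 at 12 months and 0.00997 at 18 months. The 95% interval at 18 months ran from 0.543-fold to 0.913-fold, and at 24 months from 0.631-fold to 1.06-fold. The keratocyte and gland marker sums given above were also higher in the young libraries, and their part in Aldh1a3 was not tested.

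Cyp26b1 is a cytochrome P450 that oxidises retinoic acid to inactive products (chr6:84571414-84593908, minus strand). Its normalized counts were 2033, 1545, 1416, 2033 and 3015 in the young group and 2139, 2485, 2661, 2886 and 3589 at 12 months. At 18 months they were 4474, 1547, 1335, 2605 and 4381, and at 24 months 5104, 3870, 5107, 3922 and 1892. At 24 months 4 of 5 libraries exceeded the highest young library and replicate 5 lay inside the young range. The 18-month group was the most uneven, with replicates 2 and 3 near the lowest young values and replicates 1 and 5 above every young library. The means were 2008 ± 628 (SD, n = 5), 2752 ± 542, 2869 ± 1500 and 3979 ± 1310 at 2, 12, 18 and 24 months.

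The log2 fold changes of Cyp26b1 were 0.49, 0.39 and 0.96 (SE 0.28) at 12, 18 and 24 months, and the adjusted p-values of limma were 0.627, 0.878 and 0.137. At 24 months the 95% interval of the fold ran from 1.30 to 2.90 and the unadjusted p was 0.00217, so Cyp26b1 missed the threshold through the adjustment over all genes. Without replicate 5 of the 24-month group it was a DEG (log2 fold change 1.2, adjusted p = 0.0209). That library also had the highest keratocyte sum (1190) and gland sum (259) of its age. At 18 months the library with the highest gland sum (replicate 5, 181) had a Cyp26b1 of 4381. The 18-month library with the highest keratocyte sum (replicate 2, 1540) had 1547. The part of the other tissue in Cyp26b1 was not tested. The difference between 24 and 18 months was 0.57 (95% interval -0.01 to 1.14) and neither it nor the difference from 12 months (0.47) passed. The other enzymes of this family were at or near 0: Cyp26a1 had 1 read in all young libraries together and at most 14 in any library, and Cyp26c1 had 0 reads in all 20.

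Crabp2, which carries retinoic acid to its receptors in the nucleus (chr3:87948693-87953372), was close to the filter, with 0 to 44 reads per library. Its median was 12.7 normalized counts in the young group (range 3.65 to 15.2), 9.21 at 12 months (5.52 to 12.0), 15.9 at 18 months (0 to 17.0) and 12.2 at 24 months (0.81 to 41.4). The groups overlapped, and the highest value came from replicate 5 of the 24-month group. The log2 fold change at 24 months was 0.07 with a 95% interval of -1.66 to 1.81, an interval that reached a 3.51-fold change.

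The receptor Rarg (chr15:102234938-102257522, minus strand) is the retinoic acid receptor known from stratified epithelia such as the epidermis. Its normalized counts were 2910, 2812, 1852, 2137 and 1952 in the young group and 2122, 1937, 1853, 1995 and 2120 at 24 months. The 24-month libraries lay within a narrow band at the lower end of the young range, with an SD of 117 against 494. At 12 and 18 months the values ran from 1689 to 2838 and from 1991 to 2477. The log2 fold changes were 0.03, -0.04 and -0.19 (SE 0.13, limma, adjusted p = 0.974, 0.988 and 0.666), and the interval at 24 months ran from -0.47 to 0.08.

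Rxra (chr2:27676445-27763319) is the partner with which retinoic acid receptors bind DNA, and it also pairs with other nuclear receptors. Its normalized counts in the young group were 625, 490, 456, 445 and 472, and at 24 months 584, 540, 553, 499 and 590. Young replicate 1 stood apart from the other young libraries and lay above every 24-month library. At 12 and 18 months the ranges were 410 to 608 and 449 to 638. The log2 fold changes were -0.01, 0.06 and 0.16 (SE 0.13, limma, adjusted p = 0.992, 0.984 and 0.738), with an interval of -0.11 to 0.43 at 24 months. With single libraries left out, the 24-month value stayed between 0.123 and 0.245 and its adjusted p (limma) between 0.701 and 0.836. As folds, the 24-month intervals were 0.724 to 1.06 for Rarg and 0.925 to 1.35 for Rxra.

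Of the 58 other retinoid genes reported here, all in the table, 35 could be tested. Limma called 0 of them at 12, 18 or 24 months or with all aged libraries together. The shares over all genes tested were 0.532%, 0.673%, 0.78% and 1.01%, so few calls among 35 genes would be looked for. Beside 1079, 811, 1125 and 891 of all 11288 genes, 2, 5, 4 and 2 of the 35 had an unadjusted p under 0.05 (limma). Voom called 0 of the 35. Their median log2 fold change was -0.061, -0.11 and -0.10 at 12, 18 and 24 months, beside -0.010, -0.0011 and 0.0052 over all genes tested. Among the receptors and their partners 6 of 8 could be tested and 0 were DEGs (limma; 1, 1 and 0 had an unadjusted p under 0.05 at 12, 18 and 24 months, and voom called 0). Rara had mean levels of 55.0 in the young group and 54.4 at 24 months, and Rxrb 137 and 117. Rarb, a receptor gene that retinoic acid itself induces in many cells, had only 0 to 53 reads per library. Its log2 fold changes were -0.83, -2.03 and -0.40 (SE 0.94) at 12, 18 and 24 months. At 18 months its unadjusted p was 0.0388 and its adjusted p 0.645 (limma). Rxrg was too low to test.

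**Figure D4:**
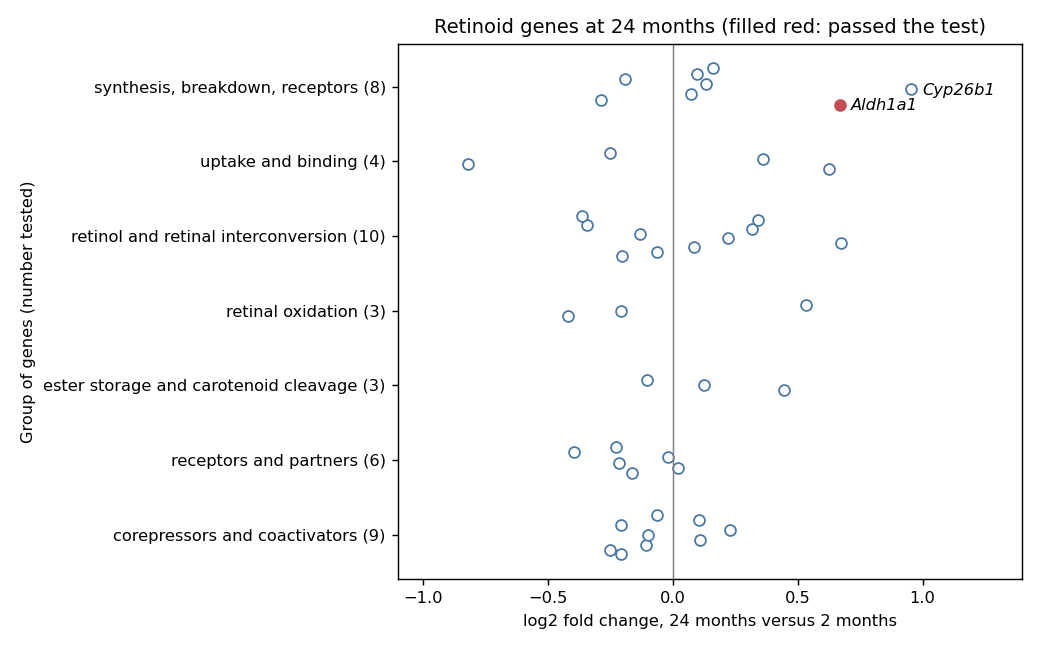
The log2 fold change between 24 and 2 months is plotted on the x axis for the 8 genes tested and for 35 other retinoid genes tested, by their role, with the number tested in brackets. The filled red point, Aldh1a1 at 0.67, passed the test, and Cyp26b1 at 0.96 is named but open.

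Genes that respond to retinoic acid were taken from a list, of which 34 are reported here, 32 were in the table and 21 could be tested. It joins genes that retinoic acid raises in many cell types with squamous genes that rise when vitamin A is lacking. Of the raised kind, 13 could be tested, and Krt19, a keratin of simple and conjunctival epithelium, fell at 12 and 18 months (not called by voom at 12 months). Krt19 went from 1264 ± 384 (SD, n = 5) in the young group to 727 ± 159 at 18 months (log2 fold change -0.77, limma, adjusted p = 0.0379) and 895 ± 136 at 24 months (-0.46, adjusted p = 0.362). Of the 6 conjunctival markers tested, Krt19 among them, 2 fell at 18 months and 1 at 24 months, and the part of conjunctival tissue in Krt19 was not tested. Of the squamous kind, 8 could be tested and 1 passed: Sprr1a, a small proline-rich protein of the cornified envelope, rose at 24 months from 171 ± 81.6 to 467 ± 108 (log2 fold change 1.54, adjusted p = 0.00352). At 24 months 8 of the 13 raised genes and 6 of the 8 squamous genes had a higher mean on the log scale. Their median log2 fold changes were 0.131 and 0.466, beside 0.0052 over all genes tested. An unadjusted p under 0.05 (limma) was found for 5 of the raised and 2 of the squamous genes at that age, and for 1125 of all 11288 genes. The raised genes went both ways, with log2 fold changes from -0.458 to 0.955, and the squamous genes ran from -0.174 to 1.542. The members of this list that retinoic acid acts on and that also belong to the 9 genes, Cyp26b1, Dhrs3 and Crabp2, did not pass. Each had a higher mean at 24 months (0.955, 0.131 and 0.074 in turn) and is counted in the 8 of 13. Dhrs3 gives the median of the raised genes, so that count and median are not separate from the 9 genes.

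The 3 genes whose log2 values followed Aldh1a1 most closely over the 20 libraries were 5330411J11Rik (Pearson r = 0.821), Ifi27 (r = 0.784) and Naip2 (r = 0.766). After the mean of each age was removed the values were 0.681, 0.769 and 0.622. These correlations are descriptions, and the libraries share their ages and the differences in marker levels given above.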

How the data were processed

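Libraries were 3′-end RNA sequencing of scraped corneal epithelium from 20 female mice. The authors' methods and the labels name cutadapt for trimming, STAR with GRCm38 (mm10) for alignment, HTSeq for counting and the relative log expression method of DESeq2 for normalization. Strandedness of the counting was not given in the sources used here. The deposited table holds log2 values, which the authors made as log2(count / size factor + 1); size factors were 0.7603 to 1.3343. Columns with the authors' means, fold changes and p-values were not used, nor were 3 pairwise tables whose libraries the larger table holds.

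Values were turned back into reads, and 100.0% came out whole (within 6.2e-08 of a whole number). Depth was 6699383 to 10762360 reads per library (median 8731333), so that a mean of 10 normalized counts, the minimum for testing, stands for 7.6 to 13.3 reads. Intervals and floors cover counting error or the spread between animals only. The log2 values (pseudocount 1) were fitted with limma 3.58.1 (R 4.3.3, variance trend) over 11288 genes, with the 4 ages in 1 fit, and the 15 aged libraries against the young group in another. Fold changes are on that log scale and understate changes of low genes. Alternatives were quantile normalization, other filters, pseudocounts and fold thresholds, a fit of the compared groups only, a replicate block, voom on the recovered reads (38, 61 and 75 genes called at 12, 18 and 24 months) and leaving out each library. The fit was tested on simulated data. Python 3.11.15, pandas 2.3.3, scipy 1.17.1, Biopython 1.88 and matplotlib 3.10.9 served for the rest. Positions and promoters came from RefSeq (GRCm38.p6), transcripts from GENCODE.

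Genes were named by this rule: the 9 members; of the listed retinoid and retinoid-responsive genes, those called against the young group, Aldh1a7 and the other receptors; the 3 genes most correlated with each member called; and markers beside a result. Cyp26a1, Cyp26c1 and the single markers named fall outside it or were named after their values were seen. 1 listed gene is not reported here. The members and lists were chosen with earlier results of these data known.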

Additional observations from a re-analysis of the deposited data

Results flagged for a closer look

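Rxra in young replicate 1 stood apart from the other 4 young libraries. Its normalized count was 624.8 against 445 to 490 in the others, and its gap to the nearest of them took up 0.749 of the whole range of the group, beyond the critical value of 0.71 for 5 samples. This was 1 of 36 groups examined (9 genes at 4 ages), and chance alone would mark about 1 in 20.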

How the results depend on the processing

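With single libraries left out, the number of the 8 genes called ran from 0 to 1 at 12, at 18 and at 24 months and stayed at 1 with all aged libraries together. At 24 months it fell to 0 when only the compared groups were fitted (Aldh1a1, adjusted p = 0.0511, with its log2 fold change still 0.67). The fits without young replicates 2 and 3 called 0 at 18 months, at 24 months and with all aged libraries together, and those without young replicates 4 and 5 called 1 at 12 months; both were chosen after the data were seen. The adjusted p of Aldh1a1 lay between 0.00822 and 0.209 at 18 months and between 0.00632 and 0.139 at 24 months over all 10 other settings. The replicate block changed no call among the 8 genes (Aldh1a1 0.68 at 18 months, adjusted p = 0.0222, and 0.67 at 24 months, adjusted p = 0.0248); only 3 of 30 same-numbered pairs of libraries correlated above 0.1 (range -0.303 to 0.159), so the numbers did not pair the animals. Of 948 recomputed log2 fold changes, 871 kept direction and side of the threshold, 15 lost the call and 3 gained it. A further 59 changed sign, and 0 of those had an adjusted p of 0.05 or less. Other filters, the fit of the compared groups only and the replicate block cannot change a log2 fold change. Nor can leaving out a library of an age outside the comparison. In those fits only the call could move, so the 871 overstate how stable the directions were. Quantile normalization turned Crabp2 to 0.28, 0.42 and 0.36 at 12 and 18 months and for all aged libraries, and Rarg at 12 months to -0.014. A pseudocount of 10 turned Crabp2 to 0.088 at 18 months and 0.076 for all aged libraries, and a pseudocount of 0.1 to -0.051 at 24 months. Voom turned Crabp2 to -0.093 at 24 months and Rdh10 to -0.015 at 12 months. Without young replicates 2 and 3 Crabp2 was -0.13 at 24 months, and without 4 and 5 Rarg was -0.081 at 12 months and Rxra -0.0090 at 18 months and -0.00038 for all aged libraries. With single libraries left out, the genes whose sign changed had these ranges: Rdh10 -0.18 to 0.19 at 12 months and -0.095 to 0.21 at 24 months; Dhrs3 -0.14 to 0.033 at 12 months and -0.12 to 0.043 for all aged; Crabp2 -0.31 to 0.14, -0.39 to 0.67 and -0.44 to 0.70 at 12, 18 and 24 months and -0.30 to 0.20 for all aged; Rarg -0.048 to 0.15 at 12 months, -0.11 to 0.051 at 18 months and -0.14 to 0.019 for all aged; Rxra -0.088 to 0.074 at 12 months and -0.015 to 0.15 at 18 months. The causes were not tested.

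Crabp2 and Aldh1a2 had few reads, at most 44 and 41 in any library, and varied between animals of an age; depth and this spread were not separated. With 5 animals per age and adjustment over 11288 genes, Cyp26b1 at 24 months did not pass (log2 fold change 0.96, SE 0.28). Aldh1a1, with a smaller change and a smaller SE (0.67, SE 0.15), passed in the same comparison. Age cannot be told apart from the source of the animals or from the marker levels of other tissue, which differed between the young and the aged libraries. The data hold RNA levels of females only, and give no enzyme activity or retinoic acid level.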
